A study of Homo sapiens with 2 samples.

Results

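The genes described are the interleukins and interleukin receptors of C4-2B cells, taken as every protein-coding gene of the deposited gene table whose symbol starts with IL and a digit. The rule found 85 of the 60671 genes of the table, after 200 repeated lines were dropped. They were 42 ligand genes, 41 receptor chain genes, IL18BP, which encodes a soluble protein that captures IL-18, and IL4I1, an enzyme that breaks down amino acids and shares only the name. C4-2B is an established human castration-resistant prostate cancer line, although the labels list its cell type as breast cancer. It was cultured with vehicle, or overnight with 1 µM (R)-9b, an inhibitor of the tyrosine kinase ACK1. RNA sequencing gave 1 library per condition, so every difference below compares 2 libraries and has no replicate check.

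Interleukins are secreted proteins with which immune and tissue cells signal to each other. Most of them act through receptors built from a private chain, which gives specificity, and a chain shared within a family, such as the common gamma chain (IL2RG), the common beta chain (CSF2RB) or gp130 (IL6ST). Those receptors carry JAK kinases that phosphorylate STAT transcription factors, and SOCS proteins switch them off. The IL-1 and IL-17 families signal instead through adaptor proteins to NF-kB. Epithelial cells, prostate cancer cells included, are known to carry receptors for IL-6, IL-1, IL-4, IL-13 and IL-17, while chains such as IL2RB and IL21R are best known from lymphocytes.

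The libraries held 65207444 counts in vehicle and 57653965 in (R)-9b. Mitochondrially encoded genes took 1.49% of the counts in vehicle and 9.54% in (R)-9b. Leaving them out of the scaling kept 16 members higher and 10 lower, the same as with them. Their part in the differences was not otherwise tested. All 9 prostate epithelial markers were present, each with at least 15362 counts in either library, among them KLK3 (PSA). Their summed count was 371175 in vehicle and 573558 in (R)-9b (KLK3 alone 146597 and 297728). By the ratios defined below, 7 of the 9 were higher in (R)-9b, KRT18 was lower (-0.09) and the interval of FOLH1 included 0. Of the 7 T cell markers, CD2, CD3D, CD3G and PTPRC had 0 counts in both libraries, and the list summed to 229 and 76 counts. Of the B cell markers, MS4A1 was at 0 in both libraries, and the list summed to 4 and 2 counts. The 6 myeloid markers summed to 55 and 52 counts, the 6 fibroblast markers to 1334 and 2269 (COL1A1 alone 1114 and 2004) and the 4 endothelial markers to 777 and 434 (VWF alone 769 and 411).

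Ratios were taken as (R)-9b over vehicle after TMM scaling, on the log2 scale, with an exact 95% interval that covers counting error only. A gene was compared when it had at least 10 counts over both libraries, and it is written as higher or lower only where its whole interval lies on that side of 0. Of the 85 genes, 21 had 0 counts in both libraries, 21 more stayed under the minimum, and 43 were compared. Of these 43, 16 were higher in (R)-9b, 10 were lower, and the intervals of 17 included 0. That is 37.2% higher and 23.3% lower. The same shares were 29.8% and 31.1% over all 23446 genes compared, and 35.4% and 37.0% over the 14791 protein-coding genes compared. These shares are the background for the class and family counts below. Only 2 members, IL18BP and IL27RA, had the whole interval above 2-fold, beside 4.2% of all genes compared. IL2RB, IL21R and IL20RB had the whole interval below 2-fold, beside 3.44% of all genes compared. The median log2 ratio of the 43 was 0.10, with a range of -6.29 to 2.49, against a median of -0.00 over all genes compared.

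The windows before the RefSeq start sites (GRCh38.p14, plus strand) of IL20RB, IL21R and IL27RA are shown because these are the members furthest from 0 with a single listed start. The window of IL20RB lies at chr3:136957733-136957982, that of IL21R at chr16:27427021-27427270 and that of IL27RA at chr19:14031512-14031761. Each is 250 bases that end at the base before the RefSeq start. The GENCODE 29 spans of IL20RB and IL21R begin further upstream, at 136946230 and 27402162. Starts upstream of these 2 windows were not searched. Capitals mark the motif matches.
IL20RB: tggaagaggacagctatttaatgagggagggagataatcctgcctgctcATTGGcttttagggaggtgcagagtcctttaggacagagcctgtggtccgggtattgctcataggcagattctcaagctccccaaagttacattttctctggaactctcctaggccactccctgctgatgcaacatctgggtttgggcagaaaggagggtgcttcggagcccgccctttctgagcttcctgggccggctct
IL21R: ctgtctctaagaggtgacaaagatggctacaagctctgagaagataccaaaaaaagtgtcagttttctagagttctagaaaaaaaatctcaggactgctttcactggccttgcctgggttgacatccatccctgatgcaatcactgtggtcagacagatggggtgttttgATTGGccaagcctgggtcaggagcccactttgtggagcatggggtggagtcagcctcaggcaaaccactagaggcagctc
IL27RA: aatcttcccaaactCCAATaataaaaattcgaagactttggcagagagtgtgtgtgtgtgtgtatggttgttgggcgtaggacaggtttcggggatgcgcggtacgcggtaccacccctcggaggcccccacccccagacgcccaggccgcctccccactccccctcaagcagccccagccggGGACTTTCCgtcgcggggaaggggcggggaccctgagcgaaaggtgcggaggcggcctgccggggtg
Motifs were searched on both strands, and the choice of motifs was made after the values were known. Each of the 3 windows held 1 match to the CCAAT box (CCAAT, shown as ATTGG where it lies on the other strand), a sequence present in 32.01% of 35116 promoter windows of this length. IL27RA also held the NF-kB core GGNNTTTCC, which was added after its sequence had been read and occurs in 5.48% of windows. No match to TTCNNNGAA (the GAS element of STAT factors, in 6.57% of windows), TGANTCA (AP-1, 6.57%), TGACGTCA (CRE, 1.65%), TATAAA (10.72%) or GCGTG (the xenobiotic response element, 32.22%) lay in the 3 windows. IL18BP has 4 listed starts and is not shown, and IL2RB is named only.

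**Figure D1:**
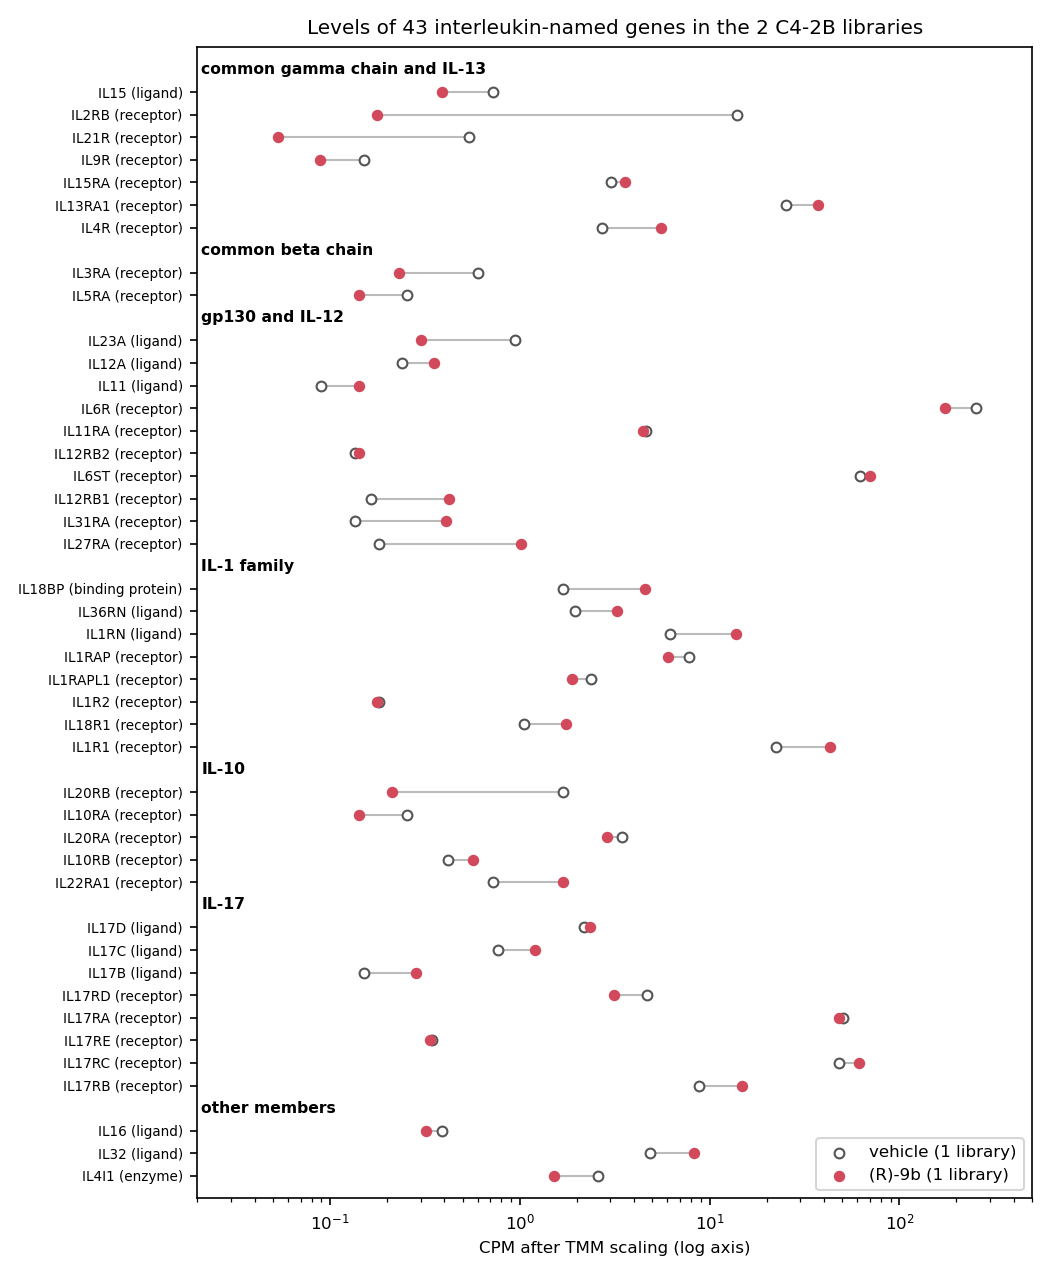
Level of each of the 43 compared genes in CPM after TMM scaling (log axis), grouped by cytokine family, with an open circle for the vehicle library and a filled circle for the (R)-9b library. IL6R is the most abundant in both libraries, at 254 and 173 CPM, and the widest gap is that of IL2RB, from 13.9 to 0.177 CPM.

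In the common gamma chain family, whose receptors take IL-2, IL-4, IL-7, IL-9, IL-15 and IL-21, 2 receptor chains fell by more than 2-fold. IL2RB (ENSG00000100385, chr22:37125838-37175054, minus strand) encodes the beta chain that binds IL-2 and IL-15 and starts the signal. It had 924 counts in vehicle and 10 in (R)-9b, or 13.9 and 0.177 CPM, a 78.4-fold lower level and the lowest ratio of all members, at -6.29 (95% interval -7.36 to -5.41). IL21R (ENSG00000103522, chr16:27402162-27452042), the private chain for IL-21, had 36 and 3 counts, or 0.541 and 0.0531 CPM. Its ratio was -3.35 (-5.69 to -1.69), on very few counts in the (R)-9b library. CD4 and CD8A, counted among the T cell markers, moved the same way as these chains, with 117 and 15 counts for CD4 (-2.73, -3.61 to -1.95) and 110 and 61 for CD8A (-0.61, -1.09 to -0.15). CD3E, which defines T cells with CD3D and CD3G, had 2 counts in vehicle and 0 in (R)-9b.

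IL2RG, the common gamma chain, had 4 and 5 counts, and 50.8% of its exon bases are shared with an overlapping gene on the same strand, which can remove reads from it. The transcript estimates gave IL2RG 1 and 9 reads (3.42, 0.57 to 8.87), an interval above 0 on few reads. IL2RA, the alpha chain of the high-affinity IL-2 receptor, had 0 and 1. IL15RA, which presents IL-15, had 202 and 203 counts, or 3.03 and 3.60 CPM, with a ratio of 0.24 (-0.04 to 0.53). The receptors of IL-4 and IL-13 were higher in (R)-9b. IL4R, the chain that binds IL-4, went from 181 to 312 counts (1.02, 0.75 to 1.30). IL13RA1, its partner for IL-13 and the member with the third highest level per kilobase in (R)-9b, went from 1682 to 2095 counts and from 5.78 to 8.49 CPM per kilobase (0.55, 0.46 to 0.65). The decoy receptor IL13RA2 had 0 and 4 counts. IL9R had 10 and 5 counts, with an interval that included 0, and IL7R 2 and 1.

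Among the 7 ligands of this family, IL15 alone reached the minimum. It supports natural killer and memory T cells, and had 48 and 22 counts, a ratio of -0.89 (-1.69 to -0.13), whose interval with halved counts, as when both mates of a pair are counted, included 0 (-2.07 to 0.20). IL4, IL9 and IL13 had 0 counts in both libraries. IL2 and IL21 had 0 counts in vehicle and 1 in (R)-9b, and IL7 had 4 in each.

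The IL-10 family showed a lower chain and a higher chain of the same receptor set. IL20RB (ENSG00000174564, chr3:136946230-137011085, plus strand) is the shared chain for IL-19, IL-20 and IL-24. It had 113 and 12 counts, or 1.70 and 0.213 CPM, a 7.99-fold lower level in (R)-9b and a ratio of -3.00 (-3.99 to -2.14). IL20RA, which pairs with IL20RB, had 229 and 163 counts, or 3.44 and 2.89 CPM, and its ratio of -0.25 (-0.55 to 0.04) included 0. IL22RA1, which pairs with IL20RB for IL-20 and IL-24 and with IL10RB for IL-22, rose from 48 to 95 counts, or 0.721 to 1.68 CPM (1.22, 0.71 to 1.75). The intervals of IL20RB and IL22RA1 lie on opposite sides of 0. IL10RA had 17 and 8 counts and IL10RB 28 and 32, both with intervals that included 0. Transcript estimates for IL10RB were higher than its counts, at 322 and 390, and their ratio of 0.53 (0.31 to 0.74) lay above 0. Of the 6 ligands, IL20, IL22, IL24 and IL26 had 0 counts in both libraries, IL10 had 2 in each, and IL19 had 0 and 1.

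Among the receptors of the gp130 and IL-12 family, 4 of 7 compared were higher in (R)-9b, 1 was lower, and the intervals of 2 included 0. IL27RA (ENSG00000104998, chr19:14031748-14053216, plus strand), the private chain for IL-27, had the highest ratio of all members. It had 12 and 57 counts, or 0.180 and 1.01 CPM, a 5.60-fold higher level and a ratio of 2.49 (1.57 to 3.52). Its partner IL6ST, or gp130, was far more abundant, at 4140 and 3937 counts or 62.2 and 69.7 CPM, with a ratio of 0.17 (0.10 to 0.23). Of the subunits of IL-27 itself, IL27 had 0 and 6 counts, and EBI3, which lies outside the name rule, had 169 and 118 (-0.28, -0.63 to 0.07).

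IL6R (ENSG00000160712, chr1:154405193-154469450, plus strand), the chain that binds IL-6, was the most abundant member and the only compared receptor of this family to fall. It had 16902 and 9780 counts, or 39.3 and 26.8 CPM per kilobase, and its ratio of -0.55 (-0.59 to -0.52) is a 1.47-fold lower level. It supplied more counts than any other member to the whole gene set, which summed to 36201 in vehicle and 29378 in (R)-9b. IL6 had 0 counts in both libraries, where a count of 0 allows up to 3. IL11RA had 308 and 253 counts and a ratio of -0.05 (-0.29 to 0.20), and its ligand IL11 had 6 and 8 counts.

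The chains for IL-12, IL-23 and IL-31 were counted at low levels. IL12RB1, shared by the receptors of IL-12 and IL-23, had 11 and 24 counts (1.36, 0.28 to 2.54), IL12RB2 had 9 and 8, and IL23R had 0 in both. With halved counts the interval of IL12RB1 included 0 (-0.20 to 3.13), and so did that of IL31RA, so that 2 receptors of the family stayed higher. IL31RA had 9 and 23 counts (1.59, 0.43 to 2.89), and OSMR, which completes the IL-31 receptor, had 1152 and 1034 (0.08, -0.04 to 0.20). IL23A, the private subunit of IL-23, was the ligand with the lowest ratio, from 63 to 17 counts (-1.65, -2.52 to -0.86). IL12B, the subunit that IL-23 shares with IL-12, had 2 and 0 counts, and IL12A had 16 and 20, with an interval that included 0.

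**Figure D2:**
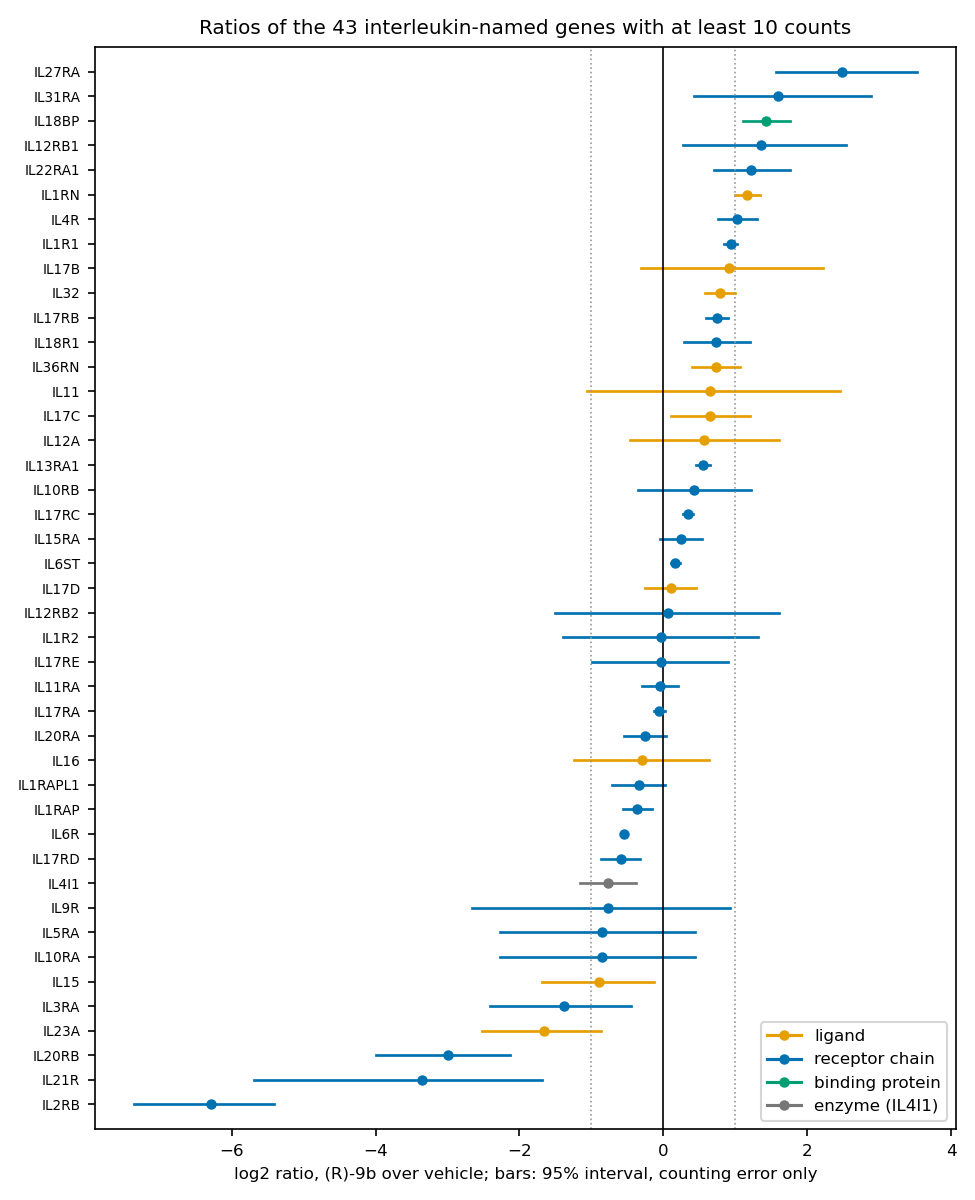
Log2 ratio of (R)-9b over vehicle for the 43 compared genes, sorted by ratio and coloured by class, with bars for the 95% interval of counting error and dotted lines at 2-fold. IL2RB, IL21R and IL20RB lie wholly below the lower line and IL18BP and IL27RA wholly above the upper line.

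In the IL-1 family, 5 of the 8 genes compared were higher in (R)-9b, 1 was lower, and the intervals of 2 included 0. IL18BP (ENSG00000137496, chr11:71998541-72005715, plus strand), which holds IL-18 away from its receptor, rose from 113 to 258 counts, or from 1.70 to 4.57 CPM. Its ratio was 1.43 (1.10 to 1.76), and with halved counts the interval of 0.97 to 1.91 was no longer wholly above 2-fold. Of its length, 15.6% of the exon bases are shared with NUMA1 on the opposite strand, a gene of 18747 and 18560 counts. IL18 had 0 counts in both libraries. IL18R1, the chain that binds IL-18, rose from 70 to 99 counts (0.74, 0.28 to 1.20), and its accessory chain IL18RAP had 0 and 2 counts.

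The 2 compared ligands of the family are both antagonists. IL1RN, which blocks the IL-1 receptor, rose from 410 to 782 counts (1.17, 0.995 to 1.35), and IL36RN, which blocks the IL-36 receptor, from 130 to 183 (0.73, 0.40 to 1.07). The agonists were scarce, with 2 and 0 counts for IL1A, 4 and 4 for IL1B, 2 and 2 for IL36G, and 0 in both libraries for IL18, IL33, IL36A and IL36B. IL37 had 2 and 0 counts and IL1F10 had 0 and 8. IL1R1, the signalling receptor of IL-1, went from 1496 to 2427 counts and from 3.17 to 6.07 CPM per kilobase (0.94, 0.84 to 1.03), while IL1RAP, the accessory chain that it needs, went from 517 to 341 (-0.36, -0.56 to -0.16). The decoy receptor IL1R2 had 12 and 10 counts, and IL1RAPL1, a related chain known from synapses, had 158 and 106, both with intervals that included 0.

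Of the IL-17 family, 3 of 8 genes compared were higher, 1 was lower, and the intervals of 4 included 0. IL17RC, a chain of the receptor for IL-17A and IL-17F, was the member with the second highest level per kilobase, at 10.6 and 13.5 CPM per kilobase and 3219 and 3461 counts (0.34, 0.27 to 0.41). IL17RA, the chain shared across the family, had 3344 and 2727 counts, or 50.2 and 48.3 CPM, and its ratio of -0.06 (-0.13 to 0.02) included 0. IL17RB, the chain for IL-17B and IL-25, had 587 and 834 counts (0.74, 0.59 to 0.90), and IL17RD, which also restrains FGF signalling, had 312 and 176 (-0.59, -0.86 to -0.32). Among the ligands, IL17C, made by epithelia, had 51 and 68 counts (0.65, 0.11 to 1.21, and with halved counts -0.13 to 1.45), IL17B had 10 and 16 and IL17D 145 and 132, the last 2 with intervals that included 0. IL17A, IL17F and IL25 had 0 counts in both libraries.

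Outside these families, IL3RA, the alpha chain for IL-3, had 40 and 13 counts (-1.38, -2.41 to -0.45), and IL5RA 17 and 8, with an interval that included 0. CSF2RB, the beta chain that both need, had 200 and 82 counts (-1.05, -1.44 to -0.67). IL32, an intracellular and secreted inflammatory protein, had 322 and 470 counts (0.78, 0.58 to 0.99), and IL4I1 had 172 and 86 (-0.76, -1.15 to -0.38). IL16 had 26 and 18 counts, with an interval that included 0, and IL34, a ligand of the CSF-1 receptor, had 0 and 6.

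Ligands and receptors differed mainly in how many were counted at all. Of 42 ligand genes, 16 had 0 counts in both libraries, 15 were under the minimum and 11 were compared, while of 41 receptor genes 5 had 0 counts, 6 were under the minimum and 30 were compared. The ligands summed to 1250 counts in vehicle and 1775 in (R)-9b, and the receptors to 34666 and 27259. These sums were not scaled for library depth. IL6R alone held 16902 and 9780 of the receptor counts and IL2RB 924 and 10, so the lower receptor sum gives no direction for the class. Among the ligands compared, 4 were higher (IL1RN, IL32, IL36RN and IL17C), 2 were lower (IL23A and IL15), and the median ratio was 0.65. Of the receptors compared, 11 were higher and 7 lower, with a median of -0.03. As shares, 36.4% of ligands were higher and 18.2% lower, and 36.7% and 23.3% of receptors. Over the protein-coding genes compared the shares were 35.4% and 37.0%. The sign of the receptor median turned when the minimum was set to 1 or 50 counts, to 0.12 and 0.17, so it gave no direction for receptors. Genes are not replicates of a condition, and the difference between the classes was not tested.

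**Figure D3:**
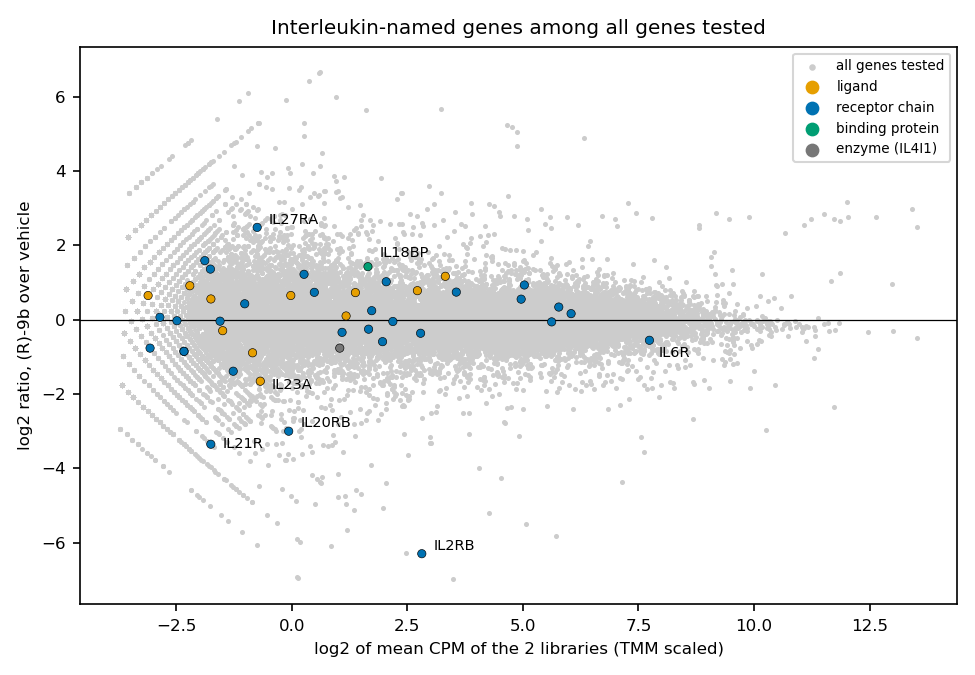
Log2 ratio against the log2 of the mean CPM of both libraries, with the 43 interleukin-named genes coloured by class. Grey points are those of the 23446 genes compared that had counts in both libraries. IL2RB lies among the lowest ratios drawn at its level, and most other members lie inside the grey cloud.

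The deposited transcript estimates were summed per gene to see which transcripts carried the changes. They held 533 of the 554 transcripts that GENCODE 29 gives for the 85 genes, and for the 25 members with 50 or more vehicle counts the median sum was 37.9% of the gene count. IL2RB could not be checked there. Its 6 transcripts used summed to 2.77 and 1.85 estimated counts, or 0.30% of the vehicle gene count, and IL2RB-201, a protein-coding transcript, was not analysed here. In all, 19 members had at least 1 transcript that was not analysed here, among them IL17RA, IL17RC, IL17RD, IL11RA, IL12RB1, IL31RA, IL3RA, IL15 and IL32.

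**Figure D4:**
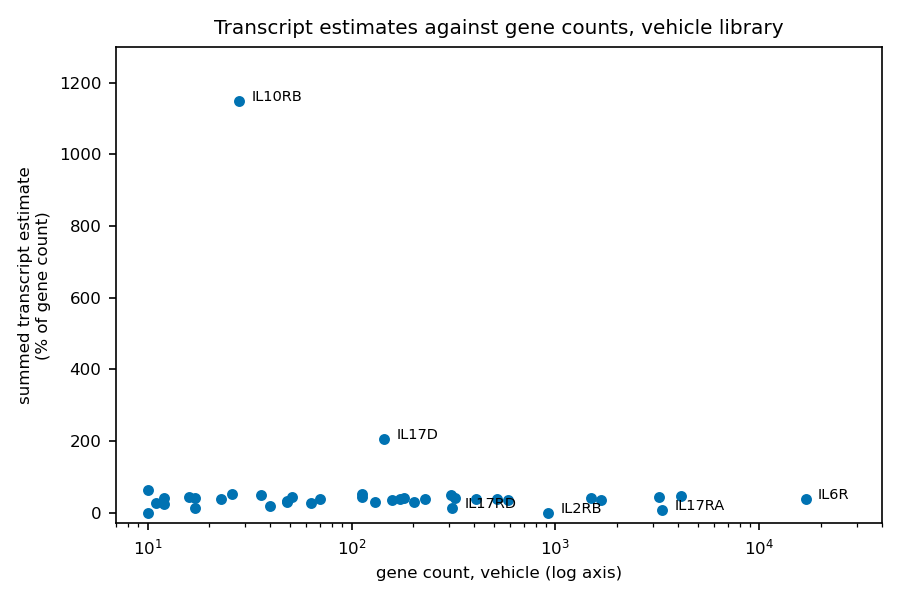
Summed transcript estimate as a percent of the gene count in the vehicle library, against the gene count (log axis), for the compared members with at least 10 vehicle counts. IL10RB (1149%) and IL17D lie far above the other genes, and IL2RB (0.30%) and IL17RA (8.67%) lie near 0.

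Of the other members past 2-fold, all moved the same way in the transcript estimates. IL21R went from 18 to 3 estimated counts and IL27RA from 5 to 22 (2.39, 0.95 to 4.14), both in protein-coding transcripts. IL20RB went from 48 to 6, of which protein-coding transcripts held 24.1 and 6 (-1.73, -3.31 to -0.40), and the rest, 23.9 in vehicle and 0 in (R)-9b, lay in IL20RB-202, a transcript annotated for nonsense-mediated decay. IL18BP went from 59.3 to 116 estimated counts, and its protein-coding part from 47.8 to 116 (1.55, 1.05 to 2.06). In (R)-9b that part was divided between IL18BP-209 (47.8 and 77.4 estimated counts) and IL18BP-201 (0 and 38.7). IL6R, with 6403 and 3655 estimated counts, was nearly all protein-coding. Over the 34 members compared in both tables, 33 had the same sign, the exception being IL9R. Of the 22 with an interval on a single side of 0 in the gene table, 22 kept the sign and 18 kept the side. The transcript intervals of IL18R1, IL17C, IL1RAP and IL17RD included 0. IL12RB1, higher by its gene counts, was under the minimum, with 3 and 2 estimated counts (-0.34, -3.92 to 2.79).

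For IL17RB the protein-coding transcripts did not move as the gene count did, and for IL23A they were too few to tell. The protein-coding transcripts of IL17RB had 167 and 134 estimated counts (-0.04, -0.38 to 0.29). The rest, 46.1 and 147 (1.92, 1.44 to 2.44), lay wholly in IL17RB-202, which retains an intron. The protein-coding IL23A-201 had 6.69 and 5 estimated counts (-0.21, -2.21 to 1.66), and the processed transcript IL23A-203 had 10.3 and 0. The interval of IL23A-201 contains the gene ratio of -1.65, so a different movement is not shown. In IL17RC, of which IL17RC-231, a protein-coding transcript, was not analysed here, the other protein-coding transcripts rose from 760 to 1016 (0.69, 0.56 to 0.83) and transcripts of other biotypes fell from 671 to 489 (-0.21, -0.38 to -0.04). IL10RB and IL17D had more estimated than counted reads, with 300 and 290 estimated for IL17D (0.20, -0.04 to 0.44). Overlapping genes share 38.1% of the exon bases of IL10RB and 39.0% of those of IL17D, so their gene counts are uncertain.

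**Figure D5:**
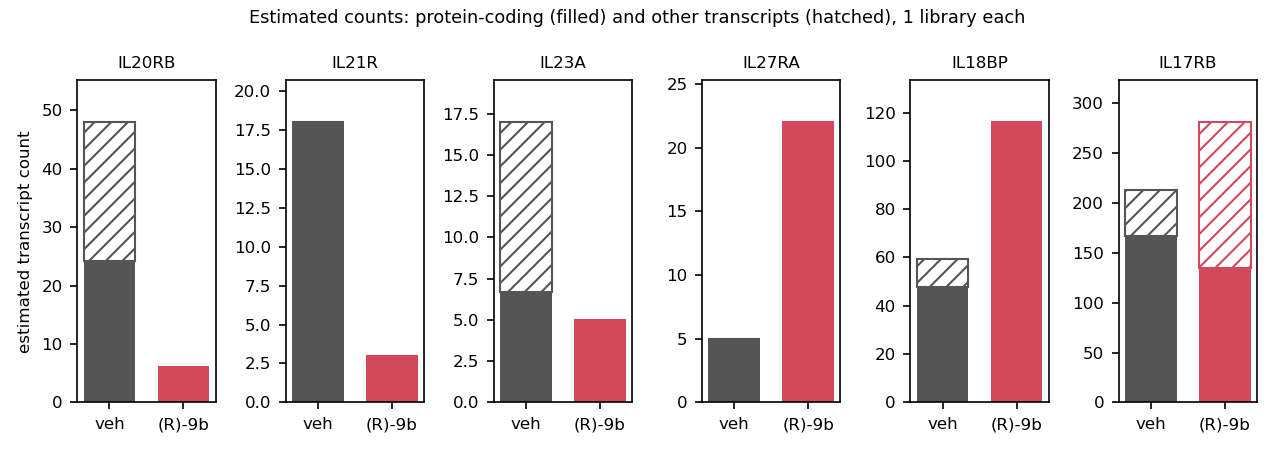
Estimated transcript counts in the vehicle and (R)-9b libraries for 6 members, stacked as protein-coding transcripts (filled) and all other transcripts (hatched), each panel on its own axis from 0. In IL17RB the filled part goes from 167 to 134 while the hatched part goes from 46.1 to 147, and in IL20RB and IL23A the hatched part is 0 in (R)-9b.

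A list of 47 partners of interleukin signalling was read beside the members. Of these, 40 were compared, 16 (40.0%) were higher in (R)-9b, 13 (32.5%) were lower, and the intervals of 11 included 0. The shares were 29.8% and 31.1% over all genes compared and 35.4% and 37.0% over protein-coding genes. The median ratio of the partners was 0.08. Past 2-fold were 5 higher genes (12.5%), of which 4 are named, and 2 lower genes (5.0%), beside 4.2% and 3.44% of all genes compared. Among the JAK kinases, JAK3, which binds the common gamma chain, had 3 and 20 counts (2.97, 1.22 to 5.37), JAK1 had 278 and 279, and TYK2 had 4560 and 5952 (0.62, 0.57 to 0.68). The SOCS inhibitors moved in different directions, with 142 and 322 counts for CISH (1.42, 1.13 to 1.71), 834 and 2049 for SOCS2 (1.53, 1.42 to 1.65) and 93 and 10 for SOCS1 (-2.98, -4.09 to -2.04). NFKBIZ, an NF-kB cofactor that IL-1 and IL-17 induce, had 247 and 823 counts (1.97, 1.77 to 2.19).

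TSLP, an epithelial cytokine related to IL-7, had the lowest ratio of the partners, with 409 and 23 counts (-3.91, -4.59 to -3.31). Its receptor pairs IL7R with CRLF2, which had 0 counts in both libraries. STAT3, on which IL-6 signalling converges, had 19702 and 17964 counts (0.10, 0.08 to 0.13), and STAT6, which IL-4 and IL-13 use, had 88 and 44 (-0.76, -1.32 to -0.22).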

How the data were processed

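RNA of C4-2B cells treated with vehicle or (R)-9b was poly-A selected and sequenced by the authors in pairs, 1 library per condition. The authors aligned reads to GRCh38 with STAR and deposited whole-number gene counts of uniquely aligned, unambiguous reads. The submitters' processing notes name STAR 2.5.1a, featureCounts 1.4.6-p5 and Salmon 0.8.2. The methods of the paper name a later STAR version, and which version gave the deposited counts was not settled here. The strand setting is not given in the sources used here, so reads of genes that overlap on opposite strands cannot be told apart. The authors also deposited gene CPM, moderated log2 CPM, and estimated counts per transcript.

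The counts were scaled with TMM (edgeR 4.0.16, R 4.3.3), with factors of 1.02 and 0.979. Relative to total counts alone this shifted log2 ratios by 0.060. The exact Clopper-Pearson 95% interval of each ratio of 2 counts (scipy 1.17.1) was computed across the whole gene table wherever the libraries together held 10 counts or more, and the code was tested on simulated data. Intervals cover counting error only, and reads without molecular identifiers are not independent molecules. No p-value was computed. CPM per kilobase used exon lengths of GENCODE 29 (GRCh38), which also gave positions and overlaps. Start-site windows came from RefSeq (GRCh38.p14). The members, lists and alternatives were chosen with earlier results of these data known. Values with CPM were given for members past 2-fold, the chains of their complexes and the 3 highest per kilobase, and also for IL17RA and IL1R1. The remaining members that reached the minimum were given by their counts. Partners past 2-fold were named, except for a gene that is not reported here, and further partners (JAK1, TYK2, EBI3, OSMR, CSF2RB, STAT3, STAT6, CRLF2) were chosen after their values were seen.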

Additional observations from a re-analysis of the deposited data

How the results depend on the processing

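The ratios of IL2RB, IL21R, IL20RB, IL27RA, IL18BP and IL6R kept their direction under all 11 alternatives, except that the transcript tables gave no value for IL2RB and a minimum of 50 counts none for IL21R. IL2RB ranged from -6.35 to -6.26, and IL6R reached -0.61 with deposited CPM and with moderated log2 CPM. Scaling by total counts, upper quartile, DESeq2 size factors or TMM without mitochondrial genes moved no count by over 1.5 times. With halved counts, as when both mates are counted, 1 member (IL27RA) stayed wholly above 2-fold, 1 ligand (IL23A) stayed lower, and the intervals of IL15, IL17C, IL12RB1 and IL31RA included 0. In vehicle, 17 of 23 counts from 1 to 20 were even, and in (R)-9b 20 of 32. Moderated log2 CPM gave a ligand median of 0.55. A minimum of 1 count, which adds genes with few reads, gave 7 higher ligands and medians of 0.40 for ligands, 0.12 for receptors and 0.24 for all 64 members. A minimum of 50 gave 0.17 for receptors and 0.21 for all 30 members. Transcript sums, with 35 members compared, gave 6 lower members, 3 of them receptors, 0 above and 1 below 2-fold, and medians of 0.25 for members, 0.25 for ligands and 0.24 for receptors. Protein-coding transcript sums, with 34 members, gave 5 lower members (1 ligand, 3 receptors), 1 above and 0 below 2-fold, and medians of 0.29, 0.27 and 0.32. IL2RB could not be compared in either transcript table. What else moved these values was not tested. No paired analysis was possible because each condition has 1 library.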

Other observations

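Genes named after interleukins that encode no protein were read beside their neighbours. IL6R-AS1, a long non-coding RNA on the strand opposite IL6R that shares none of its exon bases, had 627 counts in vehicle and 121 in (R)-9b (-2.14, 95% interval -2.43 to -1.85), next to the 16902 and 9780 counts of IL6R. IL10RB-DT, which is named as a divergent transcript of IL10RB, had 22 and 82 counts (2.14, 1.44 to 2.89), and IL10RB itself 28 and 32. IL21-AS1 had 10 and 20 counts (1.24, 0.08 to 2.496), where IL21 had 0 and 1. The pseudogenes IL6STP1 (26 and 30 counts) and IL9RP3 (41 and 37) had intervals that included 0. IL9RP3 is a copy of IL9R, whose own 10 and 5 counts are therefore uncertain.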
